A study of Rattus norvegicus with 6 samples.

Results

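Basement membrane genes were followed in primary rat nucleus pulposus cells, taken from the soft centre of intervertebral discs, after exposure to recombinant Sonic hedgehog (rShh), the secreted ligand of the Hedgehog pathway. The list names 30 genes for collagen IV, XV and XVIII, laminin chains and the proteins that link or bind them. Of these, 28 were matched by symbol among the 19088 genes of the deposited table, and Lama3 and Hspg2 were not analysed here. The 6 samples came from Sprague Dawley rats, and all cells were grown in serum-containing medium. The rShh group (n = 3) received 200 ng/ml of the ligand dissolved in DMSO for 48 h, and the Control group (n = 3) received DMSO for the same time. Whether a group's samples were grown apart or came from different rats is not stated, so p-values reflect sample-to-sample spread only, and that spread could be technical.

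Basement membranes are thin sheets of matrix that lie against cells. Laminins, each built from an α, a β and a γ chain, polymerise on the cell surface and bind integrins and dystroglycan. Collagen IV, a trimer of α chains, forms a second, covalently crosslinked network, and nidogens, perlecan and agrin join the networks to each other and to the cell. In immature nucleus pulposus, laminins lie in the matrix around the cells, which attach to them through integrins.

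Summed gene counts were 50758195 to 55501124 per Control library and 65116846 to 70031072 per rShh library. Ptch1, the Hedgehog receptor that the pathway itself induces, rose from 601 to 814 counts per Control library to 2042 to 2392 per rShh library (log2 change 1.38, SE 0.11, edgeR adjusted p = 2.42e-06). The Y-linked genes Ddx3, Eif2s3y and Kdm5d had 0 counts in each Control library and 2235 to 7120 per rShh library. Sex is not labelled, and this difference and the ligand cannot be told apart in any result below. Of nucleus pulposus and notochord markers, Pax1 (25.0 to 29.1 FPKM in Control, 19.8 to 21.1 in rShh) and Foxf1 (14.4 to 17.2 and 16.5 to 18.4) were well expressed. Krt18 (at most 0.094) and Col2a1 (at most 0.318) were near 0. Of the 9 such markers tested, 3 were higher in rShh and 5 lower, beside 31.5% and 28.8% of all genes tested. Ca12, among the 3, had 4 counts summed over Control and 324 over rShh, and passed the filter on low counts only through rShh. Col2a1, among the 5, had 260 and 21 and passed only through Control. Both thus had to differ. The rises included Acan (mean 6.80 to 71.0 FPKM) and Sox9 (0.571 to 1.15), and the falls Cd24 (23.2 to 7.04), Krt8 (5.42 to 0.905) and Foxa2 (0.785 to 0.219). In bulk RNA, fewer cells of a type and less RNA per cell cannot be told apart.

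The basement membrane genes went both ways, with the largest rises in Col4a4, Col4a3 and Col18a1 and the largest falls in Lama2 and Tinagl1. Of the 25 genes that passed the filter on low counts, 13 were higher in the rShh group, 7 were lower and 5 did not pass (edgeR, adjusted p threshold 0.05). Among all 14775 genes tested, 60.3% were called, 31.5% higher and 28.8% lower, so many calls are the background here. At least a 2-fold rise was called for 9 of the 25, where 13.0% of all genes had one, and at least a 2-fold fall for 2, where 5.71% had one. The groups did not overlap in FPKM for 22 of the 25, against 67.6% of all genes tested. In 15 all rShh values lay above (35.7% of all genes) and in 7 below (31.9%). The median log2 change was 0.16, with a range from -2.36 to 7.80, beside a median of 0.01 over all genes. Col4a4 passed the filter only through the rShh libraries, so it had to differ. The remaining 3 genes were too low to test: Lama1, the embryonic laminin α chain, had 4 counts in all, Egflam (pikachurin) 9 and Lamc3 33.

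**Figure D1:**
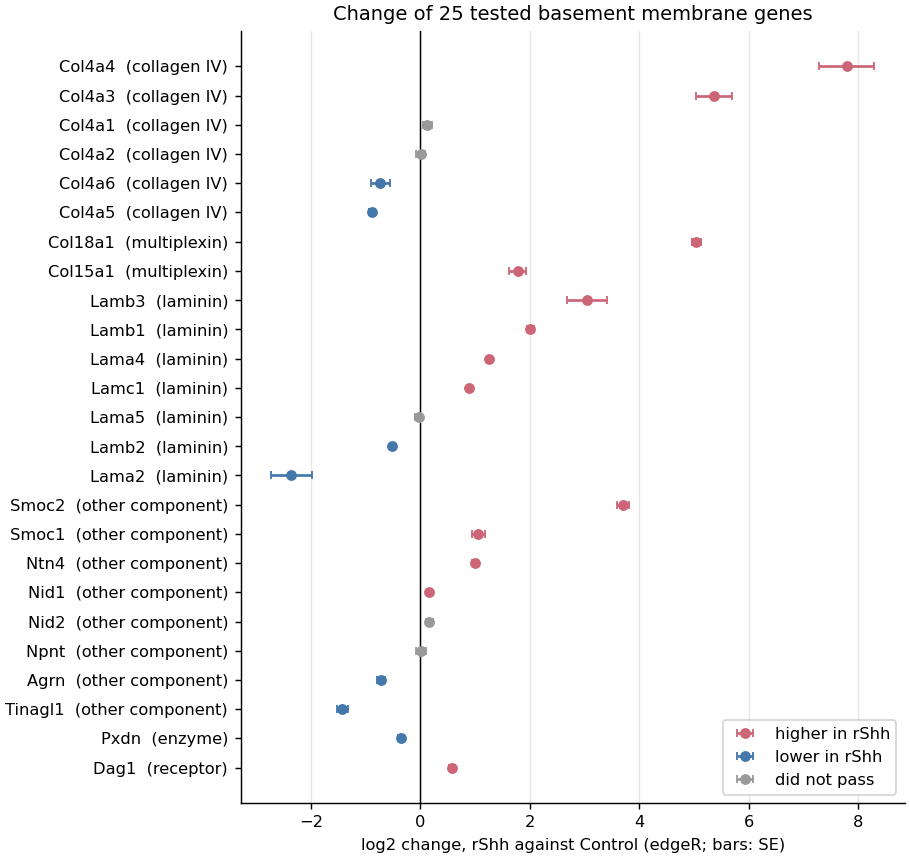
Log2 change between rShh and Control (edgeR, x axis; bars show 1 SE) for the 25 basement membrane genes tested, grouped by family on the y axis and coloured by call. Collagen IV chains ranged from -0.88 for Col4a5 to 7.80 for Col4a4, while Col4a1, Col4a2, Lama5, Nid2 and Npnt did not pass.

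Levels per length, in FPKM, were dominated by a few genes. Nid2, Nid1, Col4a1 and Col4a2 together held 65.2% of the summed FPKM of the 28 genes in Control and 51.8% in rShh. The sum itself was 1092 ± 61.0 in Control and 1508 ± 22.9 in rShh, and without Col18a1 it was 1085 ± 60.8 and 1302 ± 18.4. In the Control group Nid2 stood first, at 253 to 302 FPKM, with no overlap with the next gene. Col4a1 and Col4a2 followed, and their ranges overlapped (143 to 178 and 127 to 161). Smoc1, Smoc2, Col18a1 and Agrn lay between 5.48 and 7.72 in the Control group, and each overlapped its neighbour in the order. In the rShh group the order changed, with Col18a1 in second place at 200.3 to 209 FPKM and Smoc2 in sixth at 83.8 to 87.2. Agrn stayed near the bottom, at 3.45 to 3.72.

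**Figure D2:**
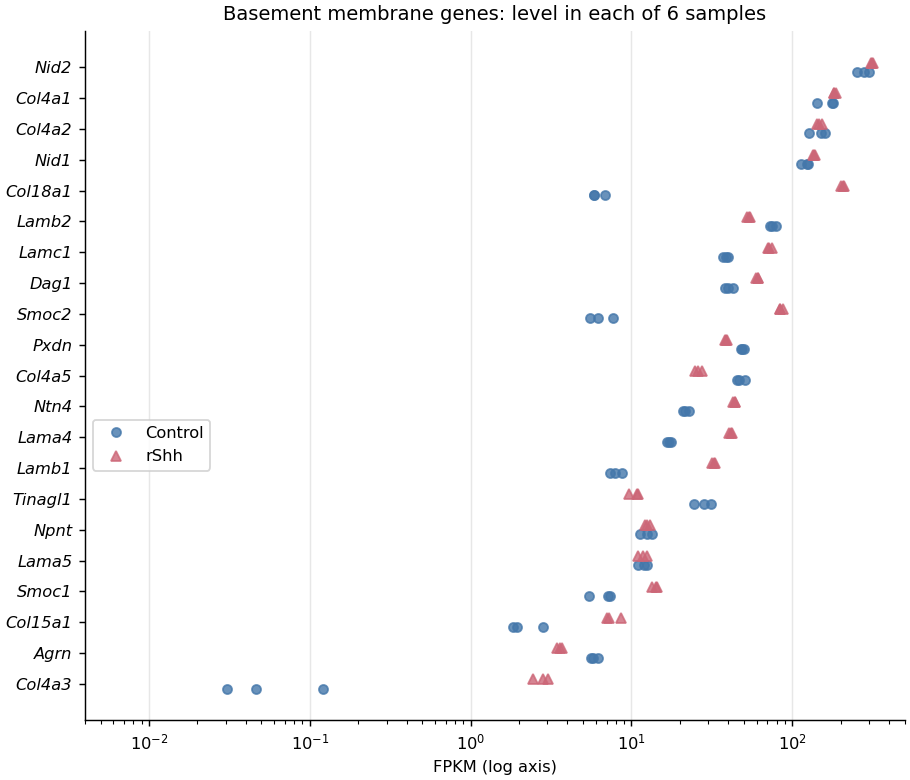
FPKM in each of the 6 samples (log x axis) for the 21 genes with a mean of at least 1 FPKM over all samples, sorted by that mean (y axis). Circles are Control and triangles rShh. Col18a1, Smoc2 and Col4a3 show the widest gaps between groups, while Nid2, Nid1, Col4a1 and Col4a2 sit near the top in both.

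The collagen IV genes were described as pairs, because each lies head to head with a partner on the opposite strand and each pair is known to start from a shared or adjacent promoter region. Both genes of a pair received the same call, but this is weak evidence that paired genes behaved alike. Col4a4 passed the filter on low counts only through the rShh libraries, so its call was fixed in advance. For Col4a1 and Col4a2 the shared call means only that neither passed. How often neighbouring genes share a call was not tested. Neither Col4a1 nor Col4a2, the chains of the collagen IV found in nearly all basement membranes, passed the test. Col4a3 and Col4a4, chains best known from kidney glomerulus, rose from near 0, and Col4a5 and Col4a6 fell. The summed FPKM of the 6 chains was 361 ± 33.7 in Control and 362 ± 8.43 in rShh, since Col4a1 and Col4a2 made up most of it.

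Col4a1 (chromosome 16, 83522162 to 83632153, plus strand) was at 143, 178 and 177 FPKM in the Control samples and at 187, 182 and 181 in the rShh samples. All rShh values lay above the Control values, by little, and Control replicate 1 was the lowest (log2 change 0.13, SE 0.08, edgeR adjusted p = 0.196). Col4a2 (83387364 to 83438561, minus strand) was at 127, 150.1 and 161 FPKM in Control and at 154, 148 and 142 in rShh. These groups overlapped throughout (log2 change 0.01, SE 0.08, edgeR adjusted p = 0.926).

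Col4a3 (chromosome 9, 88357556 to 88485830, plus strand) was at 0.0307, 0.120 and 0.0463 FPKM in the Control samples and at 2.46, 3.02 and 2.81 in the rShh samples. In counts this was 14, 52 and 19 against 1279, 1644 and 1453, a 41.3-fold difference (log2 change 5.37, SE 0.33, edgeR adjusted p = 4.28e-07). Control replicate 2 held most of the Control counts, and without it the log2 change was 6.14. Col4a4 (88232455 to 88343609, minus strand) had 0, 0 and 13 counts in Control and 1164, 1262 and 1260 in rShh. The 13 counts of Control replicate 3 alone set its fitted log2 change of 7.80 (SE 0.50, edgeR adjusted p = 6.85e-07). With all libraries the ratio of mean CPM was 216-fold. Without Control replicate 3 the other 2 Control libraries were at 0, and against a floor of 3 counts per library Col4a4 was then 339-fold higher. That value leaves out the only Control counts and is no lower bound for the whole group. Both genes reached only 1.36 to 3.02 FPKM in the rShh group, and Col4a5, the chain they assemble with, stayed above them in all 6 samples. In the deposited coordinates 374 bases lie between Col4a3 and the outermost Col4a4 isoform, which ends at 88357182. For Col4a1 and Col4a2 the deposited gap is 83601 bases, and for Col4a5 and Col4a6 it is 295823.

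Col4a5 (chromosome X, 112769645 to 112983685, plus strand) was at 50.8, 46.6 and 45.5 FPKM in Control and at 26.0, 27.3 and 24.9 in rShh. The groups were far apart, with a 1.84-fold higher Control mean (log2 change -0.88, SE 0.06, edgeR adjusted p = 6.99e-07). Its neighbour Col4a6 (112405647 to 112473822, minus strand) was about as much lower in rShh at a far lower level, with 1.03, 0.843 and 1.05 FPKM in Control and 0.514, 0.617 and 0.643 in rShh (log2 change -0.73, SE 0.17, edgeR adjusted p = 0.00363).

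**Figure D3:**
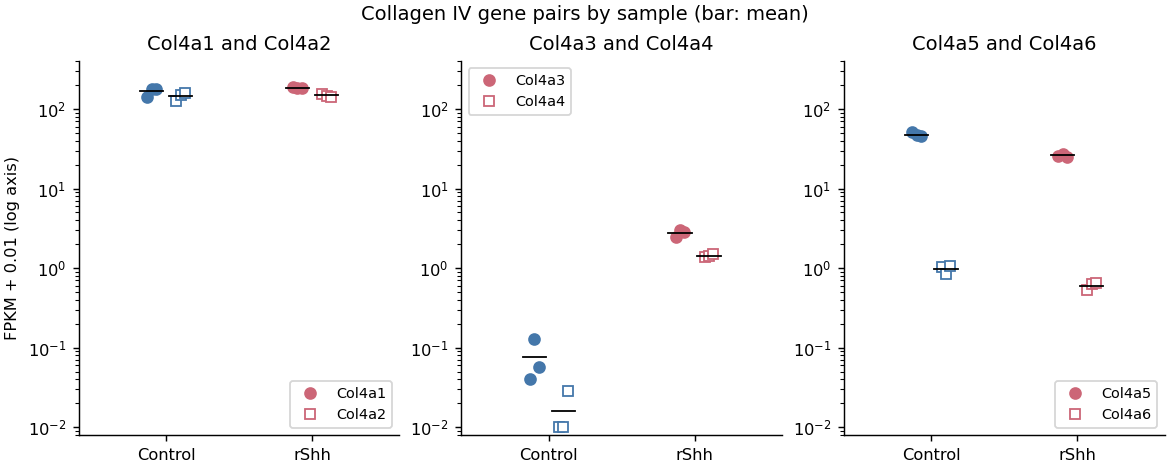
FPKM plus 0.01 (log y axis) of the 3 head-to-head collagen IV gene pairs in each Control and rShh sample, with black bars for means of the shifted values. Filled circles are the plus-strand gene and open squares the minus-strand gene. The pair of Col4a1 and Col4a2 is level, Col4a3 and Col4a4 are higher in all rShh samples, and Col4a5 and Col4a6 are lower.

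The sequence before the start of each gene is shown because the paired genes share it or face each other across it. RefSeq's starts on GRCr8, which may not be the build of the gene coordinates above, put 76 bases between Col4a2 and Col4a1, 412 between Col4a4 and Col4a3, and 1414 between Col4a6 and Col4a5. The first line below is the whole 76-base stretch between the starts of Col4a2 and Col4a1 on the plus strand (chr16:84885521-84885596). The other lines are the 250 bases before the start on the gene's own strand. They are Col4a3 (chr9:91323740-91323989, plus), Col4a4 (chr9:91323578-91323827, minus), Col4a5 (chrX:109907109-109907358, plus) and Col4a6 (chrX:109905945-109906194, minus). Capitals mark matches to any of the searched motifs.
Col4a2-Col4a1: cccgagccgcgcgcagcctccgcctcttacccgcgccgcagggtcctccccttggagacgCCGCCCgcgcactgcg
Col4a3: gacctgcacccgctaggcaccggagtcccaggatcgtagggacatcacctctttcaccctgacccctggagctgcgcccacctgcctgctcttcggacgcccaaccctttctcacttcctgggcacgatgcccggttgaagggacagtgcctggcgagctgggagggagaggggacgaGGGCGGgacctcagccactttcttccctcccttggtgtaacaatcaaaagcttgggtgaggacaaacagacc
Col4a4: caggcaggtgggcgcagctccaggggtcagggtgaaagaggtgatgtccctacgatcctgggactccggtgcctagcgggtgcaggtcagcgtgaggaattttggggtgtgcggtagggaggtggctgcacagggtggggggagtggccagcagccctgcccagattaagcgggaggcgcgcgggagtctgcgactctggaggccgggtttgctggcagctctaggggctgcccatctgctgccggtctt
Col4a5: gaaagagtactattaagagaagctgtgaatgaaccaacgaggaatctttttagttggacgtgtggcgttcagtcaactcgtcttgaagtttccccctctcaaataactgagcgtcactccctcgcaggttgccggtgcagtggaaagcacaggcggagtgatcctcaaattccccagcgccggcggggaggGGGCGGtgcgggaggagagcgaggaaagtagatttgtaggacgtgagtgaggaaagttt
Col4a6: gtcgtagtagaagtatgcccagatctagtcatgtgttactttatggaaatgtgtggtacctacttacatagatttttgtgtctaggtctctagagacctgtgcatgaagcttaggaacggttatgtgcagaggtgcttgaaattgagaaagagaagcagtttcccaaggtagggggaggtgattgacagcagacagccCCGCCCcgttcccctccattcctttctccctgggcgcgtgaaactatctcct
The motifs were the binding site of the GLI factors of the Hedgehog pathway (GACCACCCA), the GC box (GGGCGG), the CCAAT box (its own name gives its letters) and the TATA box (TATAAA), each searched on both strands, and a base may lie in more than one match. All capitals in these lines are GC boxes. The stretch between Col4a2 and Col4a1 was 78.9% G and C with 13 CpG dinucleotides, while the Col4a6 stretch was 48.0% with 6.

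In windows of 250 bases before to 50 after the start, the GLI site was in none of the 24 genes with a RefSeq promoter and in 0.385% of 33469 promoters of the same length. That says only that these letters are not in these windows. GC boxes were in 17 of the 24 windows and in 33.1% of all promoters, CCAAT in 8 and in 37.5%, and TATAAA in 2 (Smoc1 and Lama4) and in 14.2%. The windows of Col4a1 and Col4a2 overlap, as do those of Col4a3 and Col4a4. A match in a shared stretch counts for both genes, so the 24 windows are not independent. The median share of G and C was 63.3% in the 24 windows and 51.7% in all promoters.

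Collagens XV and XVIII, the multiplexins, carry heparan or chondroitin sulfate chains and sit at the outer face of basement membranes. Both rose. Col18a1, whose C-terminal end is released as endostatin (chromosome 20, 12225202 to 12332858, plus strand), was at 5.81, 5.88 and 6.81 FPKM in Control and at 207, 209 and 200.3 in rShh. The samples of each group lay close together and the groups far apart, a 33.1-fold difference (log2 change 5.05, SE 0.08, edgeR adjusted p = 1.37e-10). Its share of the summed FPKM of the 28 genes went from 0.565% to 13.6%. Col15a1, abundant around vessels and muscle (chromosome 5, 62840360 to 62950240, plus strand), was at 1.84, 1.95 and 2.81 FPKM in Control and at 7.25, 7.02 and 8.63 in rShh. It too had separate groups, with a 3.44-fold difference (log2 change 1.78, SE 0.16, edgeR adjusted p = 6.1e-06). Each of these genes has 1 isoform in the deposited table.

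The 250 bases before the RefSeq starts of the 2 multiplexin genes are set side by side because both genes rose, by different amounts. They are at chr20:11473395-11473644 for Col18a1 and chr5:66297296-66297545 for Col15a1, both on the plus strand of GRCr8, with the same motifs in capitals.
Col18a1: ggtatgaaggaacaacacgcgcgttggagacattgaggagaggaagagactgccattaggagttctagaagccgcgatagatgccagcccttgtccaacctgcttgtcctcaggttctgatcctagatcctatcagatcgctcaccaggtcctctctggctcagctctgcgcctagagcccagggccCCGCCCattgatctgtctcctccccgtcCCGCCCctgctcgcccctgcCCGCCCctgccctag
Col15a1: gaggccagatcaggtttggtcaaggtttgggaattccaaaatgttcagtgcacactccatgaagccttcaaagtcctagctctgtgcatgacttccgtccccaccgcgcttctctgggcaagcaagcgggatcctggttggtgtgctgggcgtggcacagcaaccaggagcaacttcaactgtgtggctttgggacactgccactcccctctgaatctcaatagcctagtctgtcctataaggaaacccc
The Col18a1 stretch held 3 GC boxes, and the Col15a1 stretch none of the motifs. G and C made up 60.4% of the first and 54.0% of the second.

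Laminin chains changed in composition. Of the 9 chains analysed, 4 rose, 2 fell, 1 did not pass and 2 were too low to test. The summed FPKM of α chains was 29.3 ± 0.591 in Control and 53.1 ± 1.48 in rShh, and that of γ chains 38.7 ± 1.58 and 72.6 ± 2.43. For β chains the sums were 84.0 ± 2.68 and 87.6 ± 1.72, because one β chain rose as another fell.

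Among α chains, Lama4, typical of vessel and mesenchymal basement membranes (chromosome 20, 44060731 to 44209614), was at 17.7, 17.2 and 16.7 FPKM in Control and at 40.6, 42.1 and 41.4 in rShh. That is a 2.39-fold difference between separate groups (log2 change 1.26, SE 0.05, edgeR adjusted p = 1.78e-08). Lama5, the most widespread α chain of adult tissue (chromosome 3, 175553045 to 175601127), was at 11.0, 12.6 and 12.0 FPKM in Control and at 10.9, 12.4 and 11.8 in rShh. Its groups overlapped fully (log2 change -0.03, SE 0.07, edgeR adjusted p = 0.732). Lama2, the chain of muscle and nerve, was low and lower still in rShh, with 214, 123 and 93 counts against 39, 26 and 37 (log2 change -2.36, SE 0.37, edgeR adjusted p = 0.000342).

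The β chains moved in opposite directions. Lamb1 (chromosome 6, 50528823 to 50596079) was at 8.73, 7.87 and 7.36 FPKM in Control and at 32.5, 33.1 and 31.6 in rShh, a 4.04-fold rise (log2 change 2.01, SE 0.07, edgeR adjusted p = 8.31e-09). Lamb2, which replaces the β1 chain in mature synaptic, glomerular and vascular basement membranes (chromosome 8, 117268337 to 117280517), was at 73.1, 75.0 and 79.5 FPKM in Control and at 53.7, 54.5 and 52.7 in rShh. Its Control mean was 1.42-fold higher (log2 change -0.51, SE 0.05, edgeR adjusted p = 1.68e-05). Lamb2 thus stayed above Lamb1 in all 6 samples, though by less in rShh. Lamb3, the β chain of an epithelial anchoring laminin, rose from 0.0786, 0.299 and 0.193 FPKM to 1.29, 1.81 and 1.67 (log2 change 3.05, SE 0.36, edgeR adjusted p = 4.88e-05).

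Lamc1, the γ chain of most laminins (chromosome 13, 70658707 to 70783515), was at 40.1, 39.0 and 37.0 FPKM in Control and at 70.8, 75.3 and 71.5 in rShh. The groups were separate, with a 1.86-fold difference (log2 change 0.90, SE 0.05, edgeR adjusted p = 1.89e-07).

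Among the nidogens, which bridge laminin γ chains and collagen IV, changes were small. Nid1 (chromosome 17, 90553394 to 90627101) was at 124, 126 and 113 FPKM in Control and at 138, 138 and 134 in rShh, a 1.12-fold difference (log2 change 0.16, SE 0.05, edgeR adjusted p = 0.0172). Without rShh replicate 1 or rShh replicate 2 it did not pass (edgeR adjusted p = 0.0793 and 0.0560). Nid2 (chromosome 15, 4894213 to 4951917), the most abundant gene of the list in both groups, was at 253, 302 and 281 FPKM in Control and at 315, 319 and 308 in rShh. The groups did not overlap, but the log2 change of 0.16 (SE 0.07) missed the threshold (edgeR adjusted p = 0.0538). It passed in 5 alternatives: without Control replicate 2 (edgeR adjusted p = 0.0154), with DESeq2 (0.0423), with a minimum count of 50 (edgeR, 0.0468), and with limma on log2(FPKM + 1) and log2(FPKM + 0.1) (0.0409 and 0.0422). Its adjusted p ranged from 0.0154 to 0.155 among all alternatives.

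Agrn, the proteoglycan that ties laminin to dystroglycan (chromosome 5, 173589819 to 173622645), fell from 5.59, 5.81 and 6.20 FPKM to 3.45, 3.72 and 3.62, with a 1.64-fold higher Control mean (log2 change -0.72, SE 0.07, edgeR adjusted p = 1.32e-05). Dag1, dystroglycan itself (chromosome 8, 116980497 to 116993193), rose from 39.9, 42.6 and 38.2 FPKM to 61.4, 61.7 and 59.4, or 1.50-fold (log2 change 0.59, SE 0.06, edgeR adjusted p = 1.01e-05). Dag1 and this ligand therefore differed between the groups in opposite directions. That does not hold for all its ligands: among the laminin α chains given above, Lama4 was higher, Lama2 lower, and Lama5 did not pass. Egflam, another dystroglycan ligand, had its 9 counts in Control replicate 1 alone.

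Of the calcium-binding SMOC proteins of basement membranes, Smoc2 (chromosome 1, 56242346 to 56374120) was at 5.51, 7.72 and 6.21 FPKM in Control and at 87.2, 83.8 and 84.5 in rShh. That 13.0-fold difference was the largest among genes above 5 FPKM in Control after Col18a1 (log2 change 3.71, SE 0.12, edgeR adjusted p = 5.02e-09). Smoc1, a BMP-modulating relative (chromosome 6, 104718512 to 104877980), was at 5.48, 7.12 and 7.41 FPKM in Control and at 14.4, 14.2 and 13.5 in rShh, or 2.09-fold higher (log2 change 1.06, SE 0.12, edgeR adjusted p = 3.72e-05). The pair thus stood at a like level in Control and apart in rShh.

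Ntn4, a netrin that binds laminin γ1 and disrupts laminin networks (chromosome 7, 34533543 to 34649481), was at 22.8, 21.0 and 21.5 FPKM in Control and at 43.1, 44.0 and 43.8 in rShh, or 1.99-fold higher (log2 change 0.99, SE 0.06, edgeR adjusted p = 2.34e-07). Npnt, nephronectin, a ligand of integrin α8β1 (chromosome 2, 238002990 to 238068694), was at 13.4, 11.3 and 12.5 FPKM in Control and at 13.1, 12.6 and 12.1 in rShh. Its groups overlapped (log2 change 0.01, SE 0.09, edgeR adjusted p = 0.899).

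Pxdn, peroxidasin, which makes the sulfilimine crosslinks of collagen IV (chromosome 6, 48866601 to 48980340), fell from 47.9, 50.3 and 48.7 FPKM to 38.0, 39.3 and 38.7. The difference was small but the groups were separate, with a 1.27-fold higher Control mean (log2 change -0.35, SE 0.05, edgeR adjusted p = 0.000141). Tinagl1, a matricellular protein that binds integrins (chromosome 5, 148382706 to 148392697), fell from 24.5, 28.3 and 31.3 FPKM to 10.9, 9.73 and 10.8. It had a 2.69-fold higher Control mean (log2 change -1.43, SE 0.10, edgeR adjusted p = 1.32e-06).

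Ratios between related genes were compared within each sample, as log2 of FPKM plus 0.1, for 6 pairs. Their two-sided exact permutation p cannot fall below 0.1 with 3 samples against 3, and it took that value for 5 of the pairs (0.12 after Benjamini-Hochberg adjustment over the 6). So none can pass, and the sizes are given as measured. Lamb2 was 8.37 to 10.8 times Lamb1 in the Control samples and 1.64 to 1.66 times in the rShh samples, a log2 difference of -2.51 shown by 3 of 3 rShh samples. Lama5 was 0.624 to 0.732 times Lama4 in Control and 0.269 to 0.296 times in rShh (log2 difference -1.28). Col18a1 was 2.42 to 3.16 times Col15a1 in Control and 23.2 to 29.7 times in rShh (log2 difference 3.27). Smoc2 was 0.838 to 1.09 times Smoc1 in Control and 5.92 to 6.26 times in rShh (log2 difference 2.64). For the chains of the common collagen IV trimer the shift was slight, with Col4a1 at 1.10 to 1.19 times Col4a2 in Control and 1.21 to 1.27 times in rShh (log2 difference 0.12). Nid2 stood at 2.05 to 2.48 times Nid1 in Control and at 2.29 to 2.31 times in rShh, with overlapping groups (exact permutation p = 1.0).

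**Figure D4:**
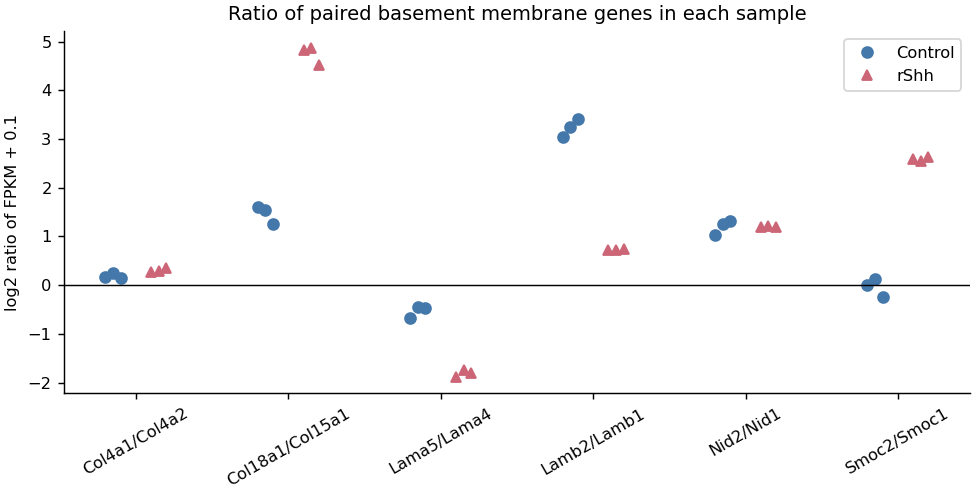
Log2 ratio of FPKM plus 0.1 (y axis) for 6 pairs of related genes (x axis) in each Control sample (circles) and rShh sample (triangles). The ratio of Lamb2 to Lamb1 is lower and those of Col18a1 to Col15a1 and of Smoc2 to Smoc1 higher in all rShh samples, while Nid2 to Nid1 overlaps.

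Isoforms were compared where the deposited table splits a gene. The genes have 44 isoforms, of which 35 could be tested. In rShh 16 were higher and 8 lower, beside 23.8% and 21.3% of all 18180 isoforms tested (45.1% called). Of the 16, 3 are Col4a4 isoforms that passed the filter only through the rShh libraries and so had to differ. For 7 genes at least 2 isoforms had a mean of 1 FPKM or more. The Smoc2 rise was present in the 13-exon isoform, from 7.10 ± 1.17 to 92.7 ± 2.28 FPKM, and in the 12-exon isoform with a later start, from 0.389 ± 0.139 to 5.68 ± 0.443 (log2 changes 3.69 and 3.84, edgeR adjusted p = 1.93e-05 and 0.000178). The 13-exon isoform held 93.6% to 95.7% of the gene's isoform FPKM in all 6 samples. Likewise the 2 Pxdn isoforms, of 18 and 24 exons, fell alike (log2 changes -0.36 and -0.35, edgeR adjusted p = 0.0019 and 0.00246).

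Of the Lamb2 isoforms, the 33-exon one fell from 67.6 ± 1.82 to 46.2 ± 1.79 FPKM (log2 change -0.56, edgeR adjusted p = 0.000311), while the 32-exon one was at 11.5 ± 2.48 and 9.68 ± 1.10 (edgeR adjusted p = 0.263). The difference between these changes was not tested. The major Ntn4 isoform, with 2097 bases, rose (from 22.2 ± 0.779 to 44.7 ± 1.20 FPKM, edgeR adjusted p = 6.09e-05), and the minor one, with 2199 bases, was at 1.03 ± 0.249 and 1.84 ± 1.40 FPKM (edgeR adjusted p = 0.265). None of the 3 Npnt isoforms passed, and the 20-exon one held 75.0% to 84.9% of the gene's isoform FPKM. Shares of the 2 Tinagl1 isoforms varied most among Control samples, with the 12-exon isoform at 95.1%, 43.7% and 63.8% there and at 73.3%, 66.8% and 75.9% in rShh. The 12-exon isoform fell (log2 change -1.30, edgeR adjusted p = 0.0107) and the 11-exon one did not pass (log2 change -1.65, edgeR adjusted p = 0.135), except without Control replicate 1 (log2 change -2.17, edgeR adjusted p = 0.000549). The minor Nid2 isoform was at 0.359, 39.8 and 14.8 FPKM in the Control samples and at 31.4, 43.5 and 28.1 in the rShh samples, and did not pass (edgeR adjusted p = 0.601).

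**Figure D5:**
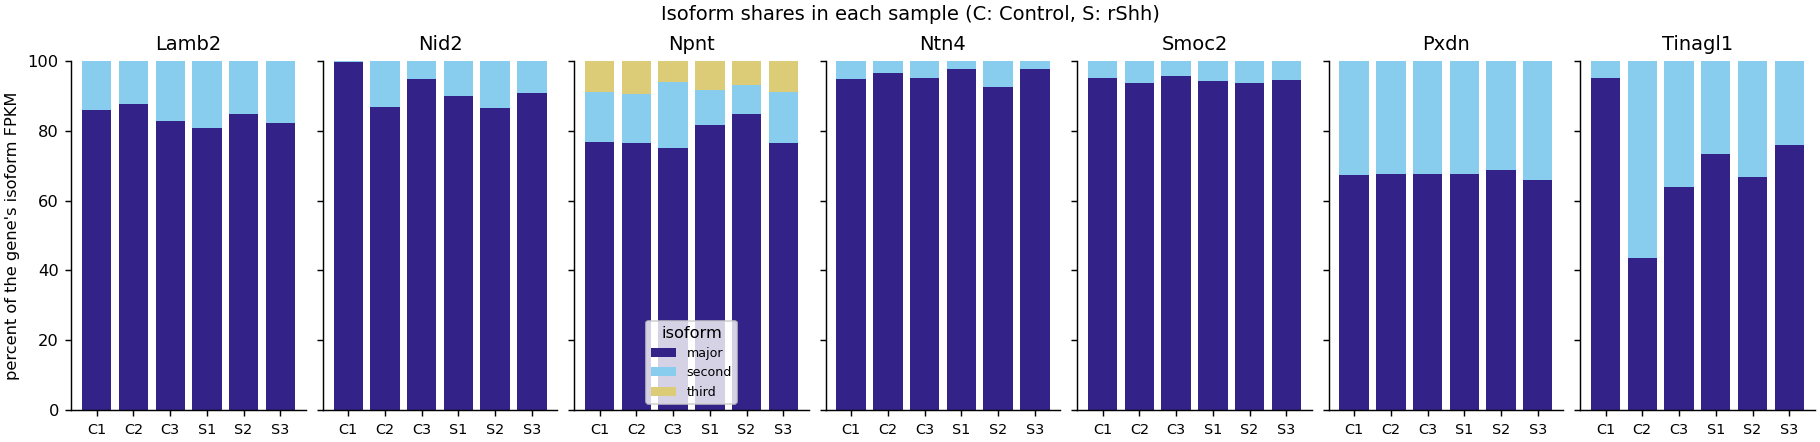
Share of each gene's isoform FPKM (y axis, percent) taken by its isoforms in the 3 Control (C1 to C3) and 3 rShh (S1 to S3) samples, for the 7 genes with at least 2 isoforms of 1 FPKM or more. Pxdn and Smoc2 shares are nearly constant, and the major Tinagl1 isoform runs from 43.7% to 95.1% among the Control samples.

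Receptors of basement membranes went both ways. Of 29 tested, 15 were higher and 9 lower, beside the 31.5% and 28.8% of all genes given above, and their median log2 change was 0.31. The 15 include Itga9 (0 FPKM in every Control library, 0.0631 to 0.156 in rShh). It passed the filter only through the rShh libraries and so had to differ. Itgb1, the β subunit of nearly all laminin- and collagen-binding integrins, was 458 ± 25.5 FPKM in Control and 947 ± 20.3 in rShh (log2 change 1.04, edgeR adjusted p = 5.72e-08). Sdc4, a syndecan of focal adhesions, rose from 28.6 ± 1.54 to 81.1 ± 3.84 FPKM and Sgcb, a sarcoglycan of the dystroglycan complex, from 13.1 ± 0.899 to 33.0 ± 2.07. The decreases with the smallest p were in laminin receptors. Itga6 fell from 26.4 ± 4.12 to 11.7 ± 0.408 FPKM, its hemidesmosomal partner Itgb4 from 1.48 ± 0.824 to 0.106 ± 0.046, and Bcam, a receptor for laminin α5, from 2.76 ± 0.235 to 0.788 ± 0.076. Laminin receptors did not all fall: the laminin-binding integrin subunits Itga3 and Itga7, chosen after their values were seen, rose from 51.1 ± 1.33 to 89.4 ± 3.57 FPKM and from 10.1 ± 1.46 to 21.0 ± 1.28 (edgeR adjusted p = 7.91e-07 and 1.10e-05).

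Of 30 tested genes for maturation and remodelling, 18 were higher and 8 lower, beside 31.5% and 28.8% of all genes, and the median log2 change was 0.24. Serpinh1 (HSP47), the collagen chaperone, fell from 2199.7 ± 128 to 981 ± 43.3 FPKM (log2 change -1.17, edgeR adjusted p = 1.14e-07). Mmp3, which cleaves laminin, nidogen and collagen IV, rose from 10.7 ± 0.883 to 75.4 ± 5.21 FPKM, and the metalloproteinase inhibitor Timp1 from 166 ± 8.70 to 458 ± 14.6. The heparan sulfate 6-O-endosulfatases went opposite ways, with Sulf1 higher (82.5 ± 3.16 and 211 ± 7.54 FPKM) and Sulf2 lower (6.63 ± 0.307 and 2.05 ± 0.273). Bmp1, a procollagen C-proteinase, fell from 24.8 ± 0.367 to 16.9 ± 0.431 FPKM.

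Of 22 tested genes of other basement membrane zone proteins, 10 were higher and 7 lower, beside 31.5% and 28.8% of all genes, and the median log2 change was 0.18. The 10 include Frem2, listed at 0 in every Control library, which passed the filter only through the rShh libraries. Col17a1 (0 to 0.132 FPKM in Control, 0.283 to 0.321 in rShh) and Mmrn2 (0 to 0.0281 and 0.0422 to 0.0834) also needed the rShh libraries to pass. Among the 7, Fras1 (0.244 to 0.332 FPKM in Control, 0 to 0.0298 in rShh) needed the Control libraries. The filter thus favoured these calls. Among the increases were Ecm1 (28.7 ± 1.32 to 55.0 ± 1.38 FPKM) and Fbln2, a fibulin that binds nidogen and laminin (80.1 ± 7.33 to 148 ± 5.06). The decreases with the smallest p were Ntn1, the founding netrin (20.9 ± 1.27 to 10.6 ± 0.133 FPKM), Sparc, a collagen-binding protein (4811 ± 98.2 to 3636 ± 15.6), and Hmcn1, hemicentin (3.96 ± 0.538 to 2.38 ± 0.119).

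Markers of other cell types that make basement membranes moved in part with these genes. Of 10 smooth muscle and pericyte markers, 9 were higher in rShh and none lower, where 31.5% and 28.8% of all genes tested were, and their summed FPKM was 2067 to 3084 in Control and 3503 to 3629 in rShh, most of it Acta2, which did not pass (edgeR adjusted p = 0.0507). Myh11, a defining smooth muscle myosin, was at 2.76 to 3.49 and 31.9 to 33.9 FPKM. Rgs5, a pericyte marker and 1 of the 9, had 0 counts in Control and was at 1.29 to 1.40 FPKM in rShh. It passed the filter only through the rShh libraries and so had to differ. Of 6 fibroblast markers, 4 were higher and 1 lower, and their sum was 6911 to 7245 FPKM in Control and 4896 to 4995 in rShh. Thy1 rose from a mean of 41.0 to 491 FPKM, Lum from 1.28 to 10.3 and Dcn from 0.246 to 7.51, while Col1a1 fell from 5049 to 2368. The part of such cells or of such a change in state in the Col18a1, Col15a1, Col4a3, Col4a4, Lama4, Lamb1 and Smoc2 results was not tested. Endothelial markers summed to 17.7 to 21.5 FPKM in Control and 20.0 to 21.1 in rShh. Of 6 analysed, none was higher and 1 was lower (Tek), and Cldn5, Tie1 and Vwf did not exceed 0.048 FPKM in any sample. The 6 epithelial markers analysed summed to 10.1 to 12.5 FPKM in Control and 11.6 to 14.2 in rShh, most of it Krt7 (7.58 to 11.5 and 11.5 to 14.1), which did not pass. Itgb4, also on that list, was lower, and Epcam, Cdh1, Cldn4 and Esrp1 did not exceed 0.144 FPKM. Of 6 Schwann cell markers analysed, 4 were tested and 2 of these were lower (S100b and Prx). The sum of the 6 was 111 to 128 FPKM in Control and 36.4 to 40.1 in rShh, most of it S100b (107 to 121 and 34.1 to 37.7).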

How the data were processed

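Poly(A)-selected RNA of 6 samples was sequenced as paired-end reads, per the labels' protocols, from libraries whose second strand was marked with dUTP. Tools named in the submitters' processing notes are HISAT2 2.0.4, StringTie 1.3.4d, cutadapt 1.9, edgeR and DESeq2. Tool roles, the strand setting, the annotation and the build were not given in the sources used here. The authors deposited whole-number read counts and FPKM values, so named per the file headers, for 19088 genes and 24343 isoforms. FPKM corrects for length and was used to set levels of different genes side by side, while tests used the counts.

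Genes were tested with edgeR 4.0.16 in R 4.3.3 (filterByExpr with a minimum count of 10, TMM scaling, glmQLFit and glmQLFTest, two-sided, group as the only term). Benjamini-Hochberg adjustment ran over all 14775 genes tested with a threshold of 0.05. Isoform counts were tested in the same way over 18180 isoforms. FPKM values are given as mean ± SD (n = 3), and fold changes are ratios of mean TMM-scaled CPM (counts scaled to library size). Ratios of 6 gene pairs were compared by exact permutation with a pseudocount of 0.1 FPKM. For Col4a4 without Control replicate 3, where the Control libraries kept had 0 counts, a floor of 3 counts per library was used, which covers counting error only. The fits across all genes were tested on simulated data. Alternatives included DESeq2 1.42.0, limma 3.58.1 on log2(FPKM + 1) or log2(FPKM + 0.1), other scalings and filters, a replicate block, and leaving out each library.

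The genes and lists were chosen with earlier results of these data known. Every gene of the basement membrane list is named. Of each further list, up to 3 genes per direction with the smallest p are named, except 1 that is not reported here, and isoforms are named where a gene has at least 2 with a mean of 1 FPKM or more. Summed gene counts ran from 50758195 to 70031072 per library. Within groups, the chi-square per degree of freedom between libraries was 10.5 to 50.5, so none was counted as a repeat of another. Promoter sequences are RefSeq's, on GRCr8, matched by symbol for 24 of the 28 genes.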

Additional observations from a re-analysis of the deposited data

How the results depend on the processing

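Of the 20 called genes of the list, 19 kept their direction and their side of the threshold in every alternative that tested them. The exception was Nid1, without rShh replicate 1 or 2, as given above. The list had 12 to 14 genes higher and 5 to 7 lower across the alternatives, the 5 with limma on genes of at least 1 FPKM, where fewer genes were tested. Fold size depended on the scale for low genes. With limma on log2(FPKM + 1) without a filter, log2 changes were 1.82 for Col4a3, 1.27 for Col4a4, 1.12 for Lamb3, -0.31 for Col4a6 and -0.23 for Lama2. The pseudocount exceeds the mean Control level of each. For Col4a6 it does so by little (mean 0.974 FPKM, with 1.03 and 1.05 in Control replicates 1 and 3). Without Control replicate 3, the fitted log2 change of Col4a4 was 13.2, which depends on the prior count and is no bound.

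Genes near no change reversed in sign without passing. Col4a2 was at -0.0069 with library totals only and Npnt at -0.0046. Leaving out 1 library gave -0.0909 to 0.0865 for Col4a2, -0.0913 to 0.0147 for Lama5, -0.0489 to 0.0597 for Npnt, and -0.0835 to 0.0544 for the ratio of Nid2 to Nid1. It gave -0.16 to 0.13 for the 1791-base Npnt isoform and -0.0028 to 1.10 for the 2199-base Ntn4 isoform. Other basement membrane zone genes numbered 6 higher and 4 lower with limma at either pseudocount, where fewer genes were tested.

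The labels number the replicates alike in both groups, but same-numbered samples did not deviate together (correlations of -0.0534, -0.027 and -0.0394). With 3 samples per group this cannot exclude a shared culture or batch, and no label says what the number stands for. With that number as a replicate block, 13 genes of the list were higher and 7 lower, 14 and 7 of the isoforms, 9 and 6 of the other basement membrane zone genes, and 4470 and 3970 of all genes. The paired permutation of the ratios gave an adjusted p of 0.3 for 5 pairs and 1.0 for Nid2 to Nid1. Lama1, Egflam and Lamc3 had too few counts to be called, and whether depth or lack of expression lay behind this was not tested.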
